A study of Mus musculus with 19 samples.

Results

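The genes described here are the immediate early and heat shock genes of the mouse cochlea, a set known to respond within minutes to hours when tissue is dissociated and cells are handled. They were taken by symbol from a list of 31, of which 29 were analysed, among 18639 gene symbols, and 2 were not analysed here. The 29 genes fall into 18 immediate early genes and 11 heat shock genes. RNA was sequenced from cells of CX3CR1 GFP/+ mice, which carry a GFP knock-in on 1 copy of the fractalkine receptor gene, so that every library, controls included, carries this allele. Tissue from 1 mouse made up each isolate. Dissociated cells with GFP, called macrophages, were parted by FACS from those without GFP, called nonmacrophages. Old mice were 12 to 14 months of age and young mice 1.5 months. Whole cochlea gave 4 libraries of old macrophages, 2 of young macrophages, 4 of old nonmacrophages and 4 of young nonmacrophages. Young auditory nerve and young lateral wall (the outer wall of the cochlear duct, with the stria vascularis and spiral ligament) each gave 1 macrophage and 1 nonmacrophage library, and 1 further library held unsorted young cochlear cells.

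Immediate early genes are transcribed without new protein synthesis when growth factors, depolarisation, mechanical stress or tissue digestion activate kinases that act on factors already bound at their promoters. Many encode transcription factors, and others encode proteins that end the response by removing mRNAs or phosphates. Heat shock genes are switched on by heat shock factor 1 when proteins misfold, and encode chaperones that refold or clear them. In dissociated tissue both groups are widely used as a sign of handling, and in the living cochlea several are also induced by noise.

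Promoter sequences of both groups were searched for known elements. RefSeq windows of 300 bases (250 bases before to 50 bases after a gene's start, build GRCm38.p6) were matched for 23 of the 29 genes. The core of a heat shock element, GAANNTTC or TTCNNGAA (both read the same on either strand), was present in a window of 8 of 9 heat shock genes with a window and of 0 of 14 immediate early genes, against 15.1% of all 32851 windows. The 8 are not 8 separate promoters: Hspe1 and Hspd1 windows overlap and hold the same sites, and those of Hspa1a and Hspa1b are near copies. A gene with several windows was counted if any of them held the element, while the shares, here and below, are of single windows. The core of a cyclic AMP response element, TGACG on either strand, was present for 9 of 14 immediate early genes and 5 of 9 heat shock genes, against 20.8% of all windows. The full element TGACGTCA was present for 2 and 0 genes (1.79% of windows), and the AP-1 site TGANTCA for 0 and 1 (7.81%). The CArG box was present for 1 and 0 (1.63%), the CCAAT box for 5 and 6 (37.4%) and the TATA box for 2 and 0 (8.32%). These matches describe letters in the windows and do not show that a factor binds there. The 4 heat shock promoters below are a selection from genes called between cell sorts or ages, Hspa1a only under alternative settings of the fit. Dnaja1, Hspd1 and Bag3 were also called and carry the core but are not shown. Heat shock element cores are in capitals.
Hspa1a, chr17:34972107-34972406, minus strand: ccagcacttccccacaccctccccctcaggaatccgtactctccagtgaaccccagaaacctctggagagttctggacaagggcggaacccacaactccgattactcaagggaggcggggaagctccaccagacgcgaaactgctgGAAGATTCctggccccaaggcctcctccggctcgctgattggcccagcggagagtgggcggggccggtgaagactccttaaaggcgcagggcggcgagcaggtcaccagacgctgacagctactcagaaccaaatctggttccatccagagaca
Hspa1b, chr17:34959189-34959488, minus strand: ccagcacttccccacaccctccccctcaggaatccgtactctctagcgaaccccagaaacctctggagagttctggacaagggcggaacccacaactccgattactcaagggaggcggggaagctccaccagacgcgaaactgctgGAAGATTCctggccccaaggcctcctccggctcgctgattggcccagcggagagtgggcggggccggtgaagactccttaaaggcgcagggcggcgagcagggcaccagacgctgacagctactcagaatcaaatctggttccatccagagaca
Hsph1, chr5:149636287-149636586, minus strand: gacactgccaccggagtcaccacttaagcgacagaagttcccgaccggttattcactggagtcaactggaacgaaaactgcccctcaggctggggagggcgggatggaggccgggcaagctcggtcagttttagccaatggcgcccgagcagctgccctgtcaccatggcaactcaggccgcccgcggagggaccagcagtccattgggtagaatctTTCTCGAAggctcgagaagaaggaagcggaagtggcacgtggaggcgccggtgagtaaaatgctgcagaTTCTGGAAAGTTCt
Hspb1, chr5:135887669-135887968, plus strand: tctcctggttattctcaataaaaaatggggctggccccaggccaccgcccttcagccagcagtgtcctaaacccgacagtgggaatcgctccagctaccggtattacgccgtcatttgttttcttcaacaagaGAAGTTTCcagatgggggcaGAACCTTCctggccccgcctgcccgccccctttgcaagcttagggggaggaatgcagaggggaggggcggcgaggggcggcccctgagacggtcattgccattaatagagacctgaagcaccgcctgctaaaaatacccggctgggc
The Hspa1a and Hspa1b windows are identical at 296 of 300 bases. The longest open reading frames of their transcripts are identical at 99.48% of aligned bases, and the whole transcripts at 86.34%. Reads of the reading frames may be divided between these genes in a way the counting cannot resolve. The pair of immediate early promoters below belong to genes that set 1 young library apart, with TGACG, or its reverse complement, in capitals.
Fos, chr12:85473640-85473939, plus strand: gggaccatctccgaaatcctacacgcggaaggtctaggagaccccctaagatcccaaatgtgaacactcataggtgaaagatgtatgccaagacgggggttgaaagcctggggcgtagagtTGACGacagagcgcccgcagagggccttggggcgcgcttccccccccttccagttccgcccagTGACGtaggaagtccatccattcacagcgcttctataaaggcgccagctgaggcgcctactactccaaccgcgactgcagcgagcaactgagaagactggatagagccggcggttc
Nr4a1, chr15:101266596-101266895, plus strand: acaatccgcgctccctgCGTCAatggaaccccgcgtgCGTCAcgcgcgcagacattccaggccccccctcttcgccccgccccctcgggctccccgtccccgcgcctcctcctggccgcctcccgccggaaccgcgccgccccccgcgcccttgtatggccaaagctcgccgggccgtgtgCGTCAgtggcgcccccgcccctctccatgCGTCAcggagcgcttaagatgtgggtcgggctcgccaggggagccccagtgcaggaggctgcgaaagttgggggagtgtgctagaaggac

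The values below are read counts that the authors divided by a factor for each library, called normalized reads. Libraries held 20.6 to 71.6 M (mega) reads, and 3 reads corresponded to 1.38 to 5.33 normalized reads. Genes with reads numbered 16750 to 17282 in old macrophages and 11652 and 13532 in young macrophages. They numbered 17662 to 17708 in old nonmacrophages, 14399 to 17200 in young nonmacrophages and 17468 in unsorted cells, the library with the fewest reads. The part of this in values at or near 0 in young macrophages was not tested. The 9 libraries above 50 M reads were the 8 old ones and young nonmacrophage replicate 14, and the 10 below 40 M reads were all young. Age and depth therefore cannot be told apart except through that 1 young library, and no old library lies below 40 M reads to give a value there. Sorting was checked on 11 macrophage markers such as Csf1r and C1qa. Their summed level was 196397 to 324007 normalized reads in old macrophages, 763439 to 929947 in young macrophages, 1243 to 2717 in old nonmacrophages, 636 to 2518 in young nonmacrophages and 31446 in unsorted cells, with none of the 11 at 0 in these libraries. Spiral ganglion neuron markers (12 genes) were also high in the macrophage sorts, at 303674 to 497437 in old and 155125 to 273761 in young macrophages, against 12804 to 20976 in old and 9102 to 35847 in young nonmacrophages. In bulk libraries, fewer cells of a type and less RNA per cell cannot be told apart.

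The 18 immediate early genes together took up a large share of all reads. They held 1.49, 1.74, 1.89 and 1.69% of reads in old macrophages and 0.893 and 2.14% in young macrophages. They held 1.31, 2.20, 1.59 and 1.17% in old nonmacrophages and 0.346, 0.386, 0.263 and 2.17% in young nonmacrophages, the last value being replicate 14. The other 3 young nonmacrophage libraries were thus the lowest of the whole-cochlea libraries, and the unsorted cells, at 1.20%, lay within the range of the old nonmacrophages. Young auditory nerve macrophages had the highest share of all 19 libraries, 3.31%, against 1.21% in lateral wall macrophages, 0.594% in nerve nonmacrophages and 0.345% in lateral wall nonmacrophages. The 11 heat shock genes varied less between libraries, from 0.183% in young nonmacrophage replicate 2 to 0.619% in old macrophage replicate 7. Their share was 0.561 to 0.619% in old macrophages, 0.403 and 0.408% in young macrophages, 0.306 to 0.357% in old nonmacrophages, 0.183 to 0.337% in young nonmacrophages and 0.527% in unsorted cells.

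**Figure D1:**
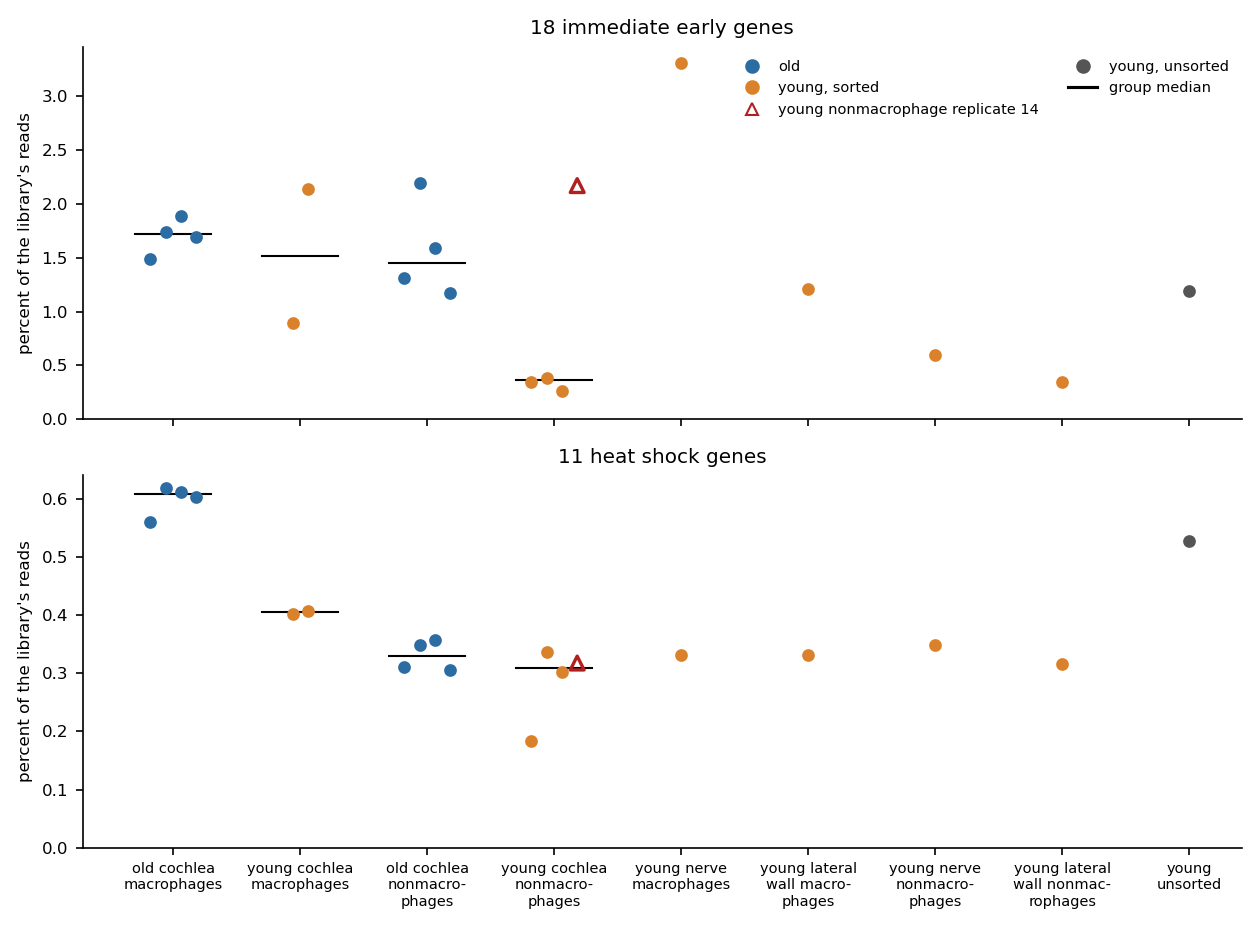
Share of each library's reads (percent, vertical axes) in the 18 immediate early genes (top) and the 11 heat shock genes (bottom), with 1 point per library, groups along the horizontal axis and bars at the median of groups with several libraries. Young nonmacrophage replicate 14 (triangle) stands at 2.17% in the upper panel while the other 3 young nonmacrophage libraries lie at 0.263 to 0.386%, and in the lower panel its 0.318% lies within their range.

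Levels between genes were compared per kilobase of exon. Fos, the partner of the Jun proteins in the AP-1 transcription factor, had the highest mean level per kilobase of the 29 genes in 8 of the 9 groups, with 44178 normalized reads per kilobase in old macrophages, 59832 in young macrophages, 58647 in old nonmacrophages, 30338 in young nonmacrophages and 36397 in unsorted cells. The exception was lateral wall nonmacrophages, where Hspa8, the constitutive cytosolic Hsp70 chaperone, stood at 15099 and Fos at 9103. Egr3, a zinc finger factor of the Egr family, was at or near the bottom in every group, with 37.4 normalized reads per kilobase in old macrophages and 17.6 in old nonmacrophages. Hspa8 reads may include small nucleolar RNAs that lie in its introns.

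Young nonmacrophage replicate 14 was the only young nonmacrophage library above 50 M reads, and it differed from its group in most immediate early genes. Of the 29 genes, 15 stood at least 2-fold above each of the other 3 young nonmacrophage libraries, against 11.5% of all 18551 genes with values, and none stood at least 2-fold below, against 2.33%. Egr1, a zinc finger factor induced by growth factor and stress kinases, had 162721 normalized reads in replicate 14, against 10076, 14874 and 4692 in replicates 2, 5 and 6. Nr4a1, an orphan nuclear receptor, had 14302 in replicate 14, against 889, 1422 and 1281 in the other 3. Replicate 14 was 10.9-fold above the highest of the other 3 libraries for Egr1 and 10.1-fold for Nr4a1.

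Junb, an AP-1 subunit, had 96631 normalized reads in replicate 14, against 8314, 17149.8 and 7458 in replicates 2, 5 and 6. Jund, an AP-1 subunit that is usually expressed without stimulation, had 42938, against 8842, 5708 and 1811. Ier2, a nuclear immediate early protein, had 33229, against 6516, 7315 and 6562. The other 3 libraries were close together for Ier2 and spread more widely for Jund, and replicate 14 stood clear of them in each case.

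The difference covered 17 of the 18 immediate early genes, in which replicate 14 was above all 3 other young nonmacrophage libraries, and 5 of the 11 heat shock genes, against 32.3% of all genes. It was below all 3 in 2 heat shock genes and in none of the 18, against 18.6%. Nr4a2, an orphan nuclear receptor related to Nr4a1, was the exception, with 985 normalized reads in replicate 14, against 1097, 586 and 457 in the others. Hspa1a, the stress-inducible Hsp70, had 9702, against 204, 1704 and 1010.0, and Dnajb1, the Hsp40 partner of inducible Hsp70, had 8522, against 2774, 2411 and 2925. Hsp90aa1, the inducible form of cytosolic Hsp90, went the other way, with 8071 in replicate 14, against 21609, 14219 and 24063.

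Set against the 4 old nonmacrophage libraries, replicate 14 lay inside their range in 15 of the 29 genes, against 47.3% of all genes. It lay above their range in 11 and below it in 3, for which no share of all genes is given. The median log2 difference from the old libraries was 0.32 for the 29 genes and -0.04 for all genes. No gene of the 29 was at least 2-fold above all 4 old libraries, against 1.55% of all genes, or at least 2-fold below them, against 4.41%. Other measures moved with this library. The 5 erythroid markers summed to 13616 normalized reads in replicate 14, against 422559 to 1784835 in the other 3 young nonmacrophage libraries, and to 14162 to 28035 in old nonmacrophages. Hair and supporting cell markers (8 genes) summed to 28623, against 19651 to 24997, and spiral ganglion neuron markers to 9102, against 15419 to 35847. The part of depth and of these cell types in the difference was not tested, and each comparison that uses young nonmacrophages is given with and without replicate 14.

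**Figure D2:**
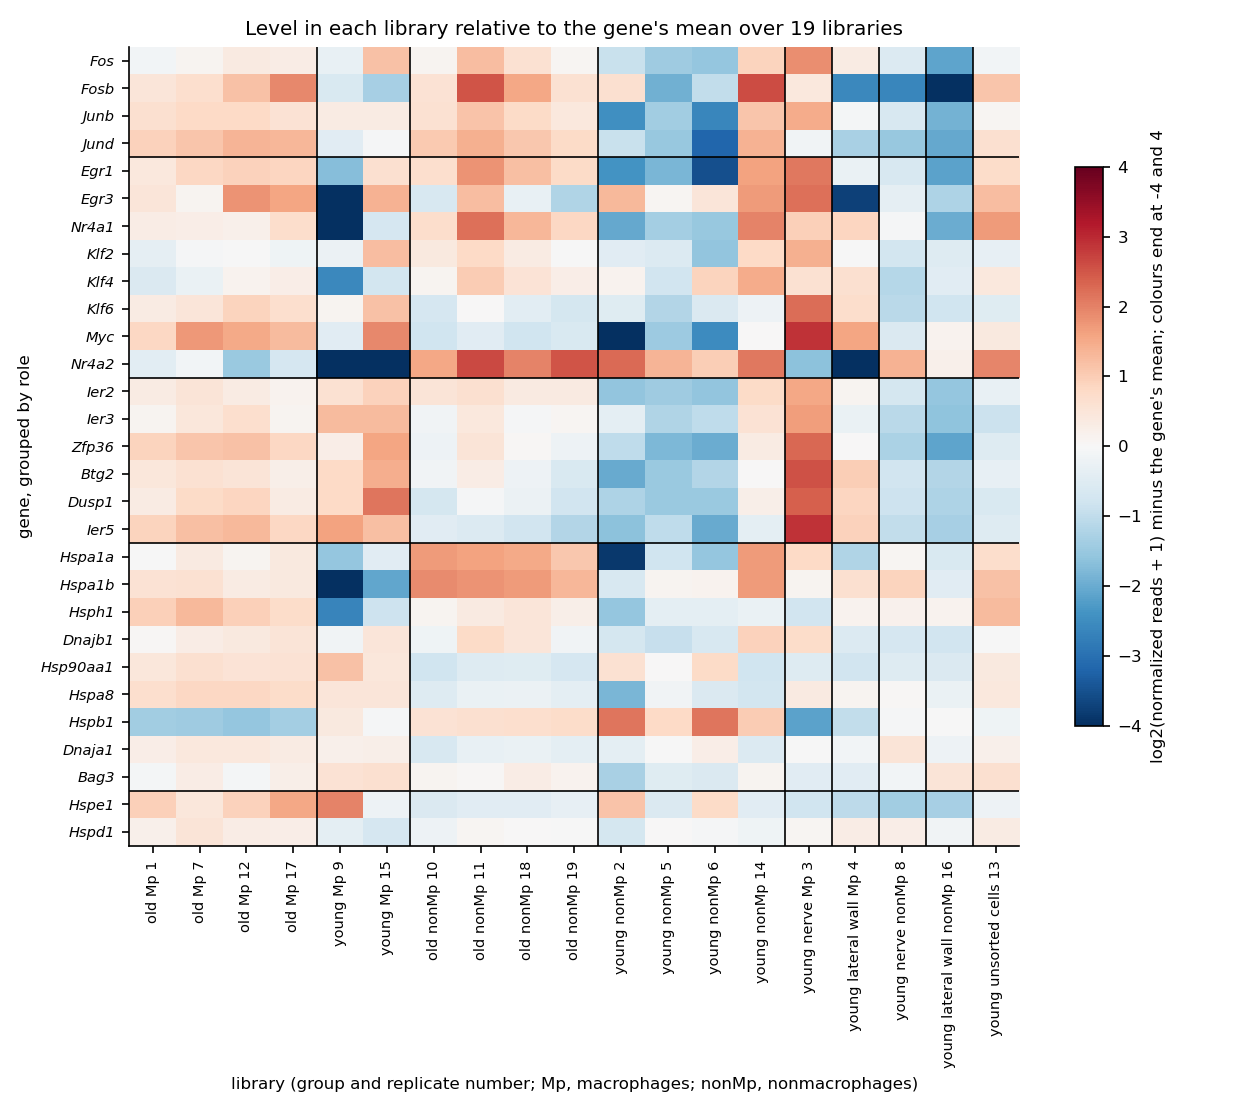
Level of each of the 29 genes (rows, grouped by role) in each of the 19 libraries (columns, grouped), as log2(normalized reads + 1) minus the gene's mean over the 19 libraries, with red above and blue below that mean. Replicates 2, 5 and 6 of young nonmacrophages lie below replicate 14 in 17 of the 18 immediate early rows.

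Old nonmacrophages were compared with young nonmacrophages to ask whether GFP-negative cells of the older cochlea carried more of these transcripts. With all 4 young libraries, limma called 0 of 29 genes higher in old cells, against 1.64% of all 18441 genes tested, and 0 lower, against 0.0813% (Benjamini-Hochberg adjusted p under 0.05). At an unadjusted p under 0.05, 11 of the 29 were higher and 2 lower, against 15.2% and 7.87% of all genes. The edgeR quasi-likelihood test called 0 of the 29, against 0.0175% of genes called higher and 0.0% called lower. DESeq2 called 0 higher, against 2.8%, and 1 lower, Hspb1, against 6.08%. The median log2 difference of the 29 genes was 0.72, against 0.39 for all genes tested, and 24 of the 29 lay above 0.

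Without replicate 14, 16 of the 29 were called higher in old nonmacrophages, against 12.3% of all genes, and 2 lower, against 7.11%. This is 1 of the fits that leave out each library in turn, and the weight given to it here was chosen after the values were seen. The 16 were 13 immediate early genes and the heat shock genes Hspa1a, Dnajb1 and Bag3. Among the 13 were all 4 AP-1 genes and all 6 genes listed as feedback and RNA or kinase regulators (Ier2, Ier3, Ier5, Zfp36, Btg2 and Dusp1). These 6 are called the regulator group below, a mixed group in which not every gene is known to end the response. Egr1 had 85732, 186890, 123093 and 90884 normalized reads in old nonmacrophages, against the young values above, with a log2 difference of 2.65 ± 0.85 (adjusted p = 0.11) over all libraries and 3.70 ± 0.52 (adjusted p = 0.001) without replicate 14 (± standard error here and below). Junb had 68914, 99311, 77125 and 60941 in old nonmacrophages, with 2.07 ± 0.60 (adjusted p = 0.09) over all libraries and 2.88 ± 0.26 (adjusted p = 0.00016) without replicate 14. In both genes every old library was above replicates 2, 5 and 6, and replicate 14 was above 3 of the 4 old libraries.

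Fos had 98947, 216182, 139497 and 97126 normalized reads in old nonmacrophages, against 49171, 33990.4, 31259.8 and 170996 in young nonmacrophages 2, 5, 6 and 14. Its log2 difference was 1.25 ± 0.49 (adjusted p = 0.16) with all libraries and 1.80 ± 0.35 (adjusted p = 0.006) without replicate 14. Fosb, an AP-1 partner with a slower course than Fos, had 2878, 11020.4, 5519 and 2890.4 in old and 2992, 507, 964 and 11584 in young nonmacrophages, and its groups overlapped even without replicate 14, with 2.06 ± 0.62 (adjusted p = 0.039) in that fit. Jund and Nr4a1 had log2 differences of 2.94 ± 0.41 (adjusted p = 0.0011) and 2.89 ± 0.67 (adjusted p = 0.013) without replicate 14, and 2.12 ± 0.66 (adjusted p = 0.1) and 1.99 ± 0.85 (adjusted p = 0.19) with it.

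In the regulator group, Ier2 had 28102, 30549, 25349.8 and 25145 normalized reads in old nonmacrophages. Its log2 difference was 1.43 ± 0.41 (adjusted p = 0.09) over all libraries and 2.00 ± 0.14 (adjusted p = 8.2e-05) without replicate 14. Zfp36, which binds AU-rich mRNAs and speeds their decay, had 34783, 56888, 41093 and 34942 in old and 19796, 11431, 9980.5 and 50549.9 in young nonmacrophages, and Dusp1, a phosphatase of MAP kinases, had 27599, 44134, 38229 and 26952 in old and 19184, 16034, 16088 and 52857 in young ones. For both, replicate 14 exceeded at least 3 of the 4 old libraries and the other young libraries lay below all 4. Without replicate 14 the log2 difference was 1.65 ± 0.32 (adjusted p = 0.0055) for Zfp36 and 0.97 ± 0.29 (adjusted p = 0.039) for Dusp1.

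Of the zinc finger and nuclear receptor factors, Klf2, Egr1 and Nr4a1 were called higher without replicate 14, and Klf4, Klf6, Egr3, Nr4a2 and Myc were not called. Klf2, a Krüppel-like factor known from endothelium and lymphocytes, had 13179.9, 17494, 12705 and 9900.1 normalized reads in old and 7252, 6872, 3358 and 17446 in young nonmacrophages. Myc, a growth regulator, had 213, 271, 211 and 245 in old and 14.2, 133, 63.6 and 372 in young nonmacrophages, with 2.20 ± 0.74 (adjusted p = 0.057) without replicate 14. Egr3 had 46.7, 173, 59.5 and 30.7 in old and 181, 76.3, 103 and 239.6 in young nonmacrophages, which overlapped.

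The heat shock genes split. Hspa1a had 9541, 9035, 8520.0 and 6319.5 normalized reads in old nonmacrophages, with a log2 difference of 2.60 ± 0.81 (adjusted p = 0.1) over all libraries and 3.54 ± 0.56 (adjusted p = 0.002) without replicate 14. Hspa1b, its neighbour with a near-identical reading frame, had 4597, 4306, 3997 and 3100.5 in old and 797, 1333, 1369 and 4009 in young nonmacrophages. Its log2 difference was 1.80 ± 1.33 (adjusted p = 0.37) without replicate 14, so the old libraries were above replicates 2, 5 and 6 yet the gene was not called. Hspb1, the small heat shock protein Hsp27 of actin-rich and stressed cells, had 5982, 6252, 6360.1 and 6689 in old and 17772, 6919, 17755 and 8043 in young nonmacrophages, lower in old cells at -1.04 ± 0.29 (adjusted p = 0.027) without replicate 14. Hsp90aa1 had 8183, 9986, 10009 and 8798 in old nonmacrophages and was also lower, at -1.08 ± 0.21 (adjusted p = 0.0056). Erythroid markers were lower in old nonmacrophages in 5 of 5 genes in the same fit, and their part in these differences was not tested.

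**Figure D3:**
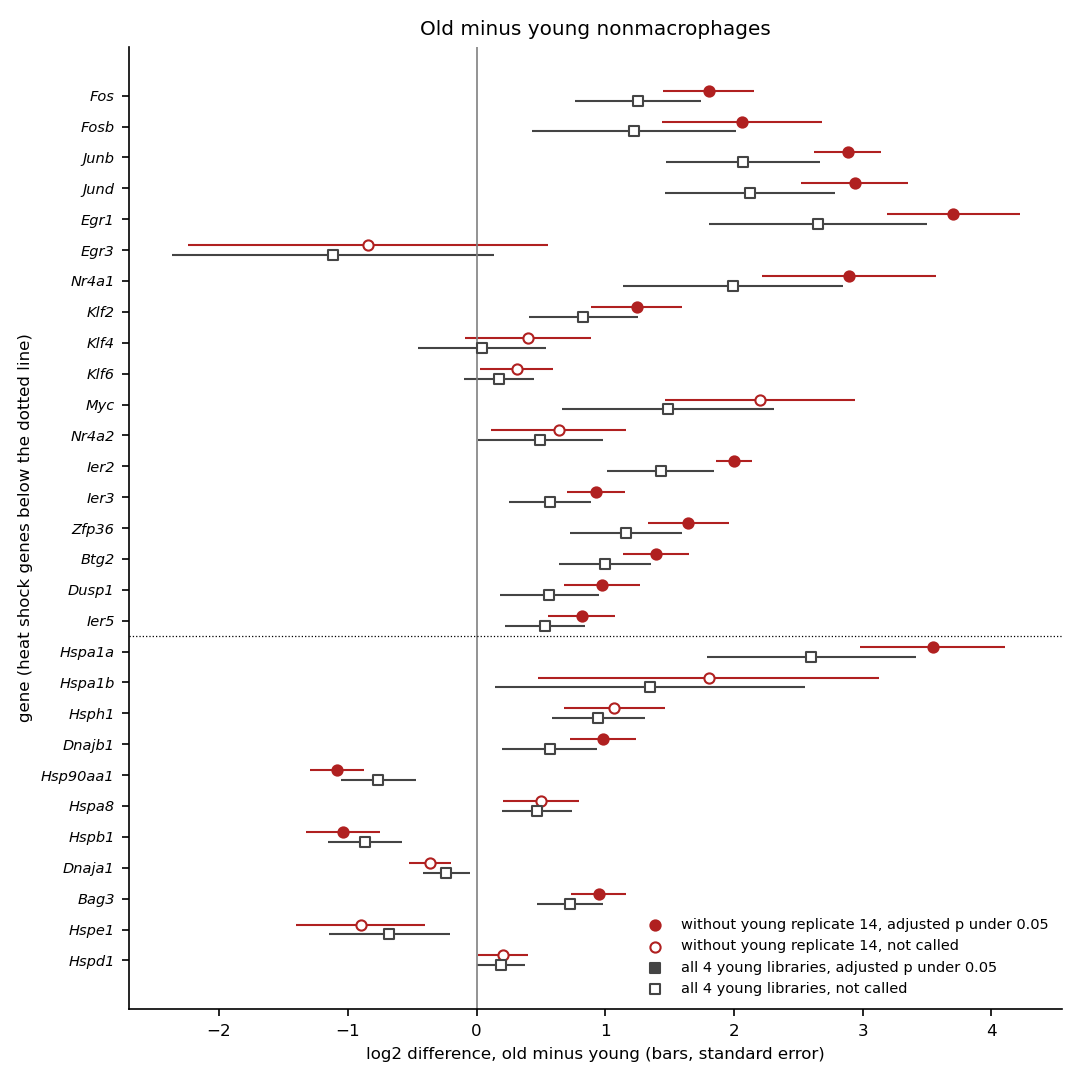
Log2 difference between old and young nonmacrophages (old minus young, horizontal axis, bars ± standard error) for each of the 29 genes, with all 4 young libraries (squares) and without young replicate 14 (circles), filled where the adjusted p was under 0.05. With all libraries 0 of 29 symbols are filled, and without replicate 14 18 of 29 are.

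With replicate 14 as the only young nonmacrophage library, limma called 0 of the 29 genes higher, against 0.0435% of all genes, and 0 lower, against 0.0%, the lone young library being assumed to vary like the other groups (a fit added after the data were seen). This fit compared 4 libraries with 1 and called few genes of any kind, so a lack of calls among the 29 says little. Its estimate of spread also included the young macrophage libraries, which lie below 40 M reads. The part of depth was not tested.

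Old macrophages were compared with young macrophages in the same fit. Of the 29 genes, 4 were higher in old macrophages (Nr4a2, Hspa1b, Hsph1 and Hspd1), against 24.1% of all genes tested, and 1, Hspb1, was lower, against 5.57%. The median log2 difference of the 29 genes was 0.14, against 0.88 for all genes. Hsph1, the Hsp110 nucleotide exchange factor of Hsp70, had 4768, 6023, 4735 and 4132 normalized reads in old macrophages, against 395 and 1374 in young macrophages, a log2 difference of 2.72 ± 0.45 (adjusted p = 0.00069). All 4 old libraries were above both young ones. Hspb1 had 1538, 1504, 1379 and 1544 in old macrophages, against 5266 and 3891 in young ones, with -1.60 ± 0.35 (adjusted p = 0.0047).

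Nr4a2 had 173, 211, 81.6 and 143 normalized reads in old macrophages, against 5.27 and 5.64 in young macrophages, which are 3 and 5 reads. Its log2 difference was 4.48 ± 0.60 (adjusted p = 0.00012), and the size of such a difference depends on the pseudocount where one group is near its floor. Hspa1b had 1859, 1881, 1539.9 and 1625 in old macrophages, against 0 and 295 in young ones, of which replicate 9 had no read, with 6.65 ± 1.47 (adjusted p = 0.0052). Hspd1, the mitochondrial chaperonin Hsp60, had 5501, 6788, 5827 and 5649.8, against 3612 and 2974, with 0.85 ± 0.22 (adjusted p = 0.013), and its reads may include those of 5 annotated pseudogenes and of Hspe1, which overlaps it on the opposite strand.

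The remaining immediate early genes did not pass the test between old and young macrophages, and for several of them the 2 young libraries lay far apart. Egr1 had 70804, 94348, 101014 and 96640.4 normalized reads in old macrophages, against 16256 and 82849.7 in young macrophages 9 and 15, with 1.29 ± 1.04 (adjusted p = 0.36). Dusp1 had 56674, 76579, 81935 and 56414 in old macrophages, against 78829.8 and 199665 in young ones, with -0.91 ± 0.47 (adjusted p = 0.16). Fos had 85919, 99910, 116890 and 112905 in old macrophages, against 74099 and 207350 in young ones, so that the young values lay on either side of the old range. Nr4a1 had 4444, 4383, 4188 and 5898 in old macrophages, against 176 and 2313 in young ones, and missed the threshold at 2.87 ± 1.04 (adjusted p = 0.053).

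Markers of several cell types moved with age in the macrophage sort. Macrophage markers summed to 196397 to 324007 normalized reads in old and 763439 to 929947 in young macrophages, with 2 of 11 called lower. Hair and supporting cell markers summed to 10593 to 14873 in old and 4126 to 6365 in young macrophages, with 6 of 8 called higher, and up to 7 of the 8 were at 0 in a young library. Schwann cell and glia markers summed to 149249 to 406809 in old and 95930 to 99888 in young macrophages, with 6 of 9 called higher, and neuron markers (levels above) had 4 of 12 called higher. Fibroblast and matrix markers summed to 6937 to 10207 in old and 5629 to 12269 in young macrophages, with 3 of 8 called higher and up to 4 of the 8 at 0 in a young library. Endothelial markers summed to 6227 to 7449 in old and 29933 to 30451 in young macrophages, with 4 of 8 called lower. T and NK cell markers summed to 153 to 380 in old and 3237 to 17358 in young macrophages, with 6 of 8 called lower. Their part in the differences of the 29 genes was not tested. Quantile normalization moved the median of all genes to -0.07 and the calls over all genes to 2292 higher and 2277 lower, against 4441 and 1027 as deposited, and Nr4a2 then stood at -0.075. Library quality weights left 1 of the 29 higher (Hspa1b), against 1.96% of all genes, and 0 lower, against 0.0%. With the nerve and lateral wall libraries among the young, 2 were higher (Nr4a2 and Hsph1), against 14.3%, and 0 lower, against 4.17%. Without young macrophage replicate 15, Hspd1 was no longer called, and Egr3, Klf4 and Nr4a1 were newly called higher. Over all genes that fit called 8490 in either direction, against 5468 with all libraries. With scaling to a common total, Klf4 and Nr4a1 were called higher as well. Fitted on the macrophage groups alone, Fosb and Jund were also higher and Ier3 lower, and Hspa1b was no longer called.

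The age difference of macrophages was set against that of nonmacrophages by an interaction term. Nr4a2 was the 1 gene of 29 called, with a larger old-minus-young difference in macrophages, 3.99 ± 0.77 (adjusted p = 0.0049), against 6.98% of all genes called in that direction. This call was kept by edgeR and DESeq2 and without each library in turn. It was lost with quantile normalization (-0.44, adjusted p = 0.81), with library quality weights (3.79, adjusted p = 0.71) and with nerve and lateral wall libraries added (2.60, adjusted p = 0.24). No gene of the 29 was called in the other direction, against 0.954% of all genes. At an unadjusted p under 0.05, 5 had a larger and 6 a smaller difference in macrophages, against 16.9% and 5.14% of all genes. The edgeR test called Nr4a2 alone, against 9.09% of all genes larger and 0.707% smaller in macrophages. DESeq2 called Nr4a2 larger, against 13.1%, and Bag3 smaller, against 2.91%. Without young nonmacrophage replicate 14, 8 of the 29 were called with a smaller age difference in macrophages (Fos, Junb, Klf2, Ier2, Ier3, Btg2, Dusp1 and Bag3), against 1.98% of all genes, and 1 with a larger one, Nr4a2, against 7.13%. Ier2 had the smallest adjusted p among the 8, with -2.44 ± 0.21 (adjusted p = 3.9e-05). Without young macrophage replicate 15, 5 genes were called with a larger difference in macrophages (Egr3, Klf4, Nr4a2, Hspa1b and Hsph1), against 24.5%, and 0 with a smaller one, against 4.64%. With replicate 14 as the only young nonmacrophage library, 2 were called larger (Jund and Nr4a2), against 12.5% of all genes, and 1 smaller (Hspb1), against 3.33%.

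In the old cochlea, 3 of the 18 immediate early genes and 4 of the 11 heat shock genes were called between macrophages and nonmacrophages. Of the 29 genes, 5 were higher in old macrophages (Klf6, Ier5, Hsp90aa1, Hspa8 and Dnaja1), against 9.25% of all genes tested, and 2 were lower (Nr4a2 and Hspb1), against 9.36%. Egr1 had 70804, 94348, 101014 and 96640.4 normalized reads in old macrophages, against 85732, 186890, 123093 and 90884 in old nonmacrophages, and Junb had 69645, 78216, 78097 and 67152, against 68914, 99311, 77125 and 60941. Both sorts overlapped, and the log2 differences were -0.36 ± 0.85 (adjusted p = 0.84) for Egr1 and -0.04 ± 0.60 (adjusted p = 0.98) for Junb. The 95% interval for Junb, -1.34 to 1.25, leaves room for a change of more than 2-fold either way.

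Ier5, a regulator of heat shock factor 1 and of phosphatase PP2A targets, had 6335, 7830.5, 8421 and 6034 normalized reads in old macrophages, against 2493, 2351, 1999 and 1512 in old nonmacrophages, a log2 difference of 1.79 ± 0.31 (adjusted p = 0.0015). Klf6, a Krüppel-like factor, had 16479, 18261, 24098 and 20758, against 8307, 13360.3, 9831 and 8031, with 1.03 ± 0.27 (adjusted p = 0.019). For each of these genes the lowest macrophage library was above the highest nonmacrophage library. Zfp36 had 74308, 86168, 89090.1 and 70829, against 34783, 56888, 41093 and 34942, without overlap, yet missed the threshold at 0.96 ± 0.44 (adjusted p = 0.16).

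Nr4a2 had 173, 211, 81.6 and 143 normalized reads in old macrophages, against 673, 1423, 907 and 1317 in old nonmacrophages, with -2.84 ± 0.49 (adjusted p = 0.0013). Hspb1 had 1538, 1504, 1379 and 1544, against 5982, 6252, 6360.1 and 6689, with -2.08 ± 0.29 (adjusted p = 0.00027). Hspa8 had 122968, 139044, 139483 and 128653, against 53995, 65248, 65896 and 59962, with 1.12 ± 0.27 (adjusted p = 0.011), and Hsp90aa1 had 19449, 22169, 20658 and 21351, against 8183, 9986, 10009 and 8798, with 1.18 ± 0.29 (adjusted p = 0.013). In all 4 genes the old sorts did not overlap. The share of all genes whose groups do not overlap is not given, here or in the other comparisons, so lack of overlap only describes these values. Hspa1a had 2935, 3766, 3204 and 3859.8, against 9541, 9035, 8520.0 and 6319.5, also without overlap, but was not called at -1.27 ± 0.81 (adjusted p = 0.33). The spread of the young libraries enters these tests: fitted on the old groups alone, 12 of the 29 were called higher, against 24.9% of all genes, and 6 lower, against 33.4%. Library quality weights gave 14 higher, against 25.7%, and 7 lower, against 34.8%. Spiral ganglion neuron markers were called higher in old macrophages in 10 of 12 genes and Schwann cell and glia markers lower in 7 of 9, and their part in these differences was not tested.

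In the young cochlea the genes called higher in macrophages included the whole regulator group. Of the 29 genes, 10 were higher in young macrophages, against 9.18% of all genes tested, and 4 were lower, against 22.3%. The 10 were all 6 genes of the regulator group (Ier2, Ier3, Ier5, Zfp36, Btg2 and Dusp1) with Klf6, Myc, Bag3 and Hspa8. The 4 were Nr4a2, Klf4, Hspa1b and Hspb1. The call of Ier2 (adjusted p = 0.021) was not held by edgeR (adjusted p = 0.095) or DESeq2 (adjusted p = 0.058). The other 9 were higher by edgeR, against 9.62% of all genes, and by DESeq2, against 12.4%, and the same 4 were lower, against 20.4% and 25.0%. The median log2 difference of the 29 was 0.80, against -0.61 for all genes tested. Dusp1 had 78829.8 and 199665 normalized reads in young macrophages, against 19184, 16034, 16088 and 52857 in young nonmacrophages, with 2.47 ± 0.47 (adjusted p = 0.0015). Ier5 had 10377 and 7942, against 1106, 1693, 842 and 2593, with 2.67 ± 0.38 (adjusted p = 0.00015). Both macrophage libraries were above all 4 nonmacrophage libraries in these genes, replicate 14 included.

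Btg2, an antiproliferative factor that promotes deadenylation of mRNAs, had 30366 and 48057 normalized reads in young macrophages, against 4285, 6302, 7708 and 17804 in young nonmacrophages, with 2.29 ± 0.44 (adjusted p = 0.0015). Ier3, a survival factor induced by NF-kB, had 15962 and 15994, against 5062, 2890.1, 3296 and 9789, with 1.78 ± 0.39 (adjusted p = 0.0042). Ier2 and Zfp36 reached 1.72 ± 0.51 (adjusted p = 0.021) and 2.05 ± 0.54 (adjusted p = 0.011), but young macrophage replicate 9 was below replicate 14 for both. Bag3, an Hsp70 co-chaperone of selective autophagy, had 3358 and 3491, against 912, 1602, 1496 and 2421, with 1.17 ± 0.31 (adjusted p = 0.012).

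The genes lower in young macrophages were led by Nr4a2, with 5.27 and 5.64 normalized reads, against 1097, 586, 457 and 985 in young nonmacrophages, a log2 difference of -6.83 ± 0.60 (adjusted p = 1.8e-06). Klf4, a factor of epithelial and monocyte differentiation, had 176 and 637, against 1157, 618, 1963 and 2990.1, with -2.09 ± 0.61 (adjusted p = 0.02). Hspa1b had 0 and 295, against 797, 1333, 1369 and 4009, with -6.50 ± 1.47 (adjusted p = 0.0049), and replicate 9 held no read. Hspb1 had 5266 and 3891, against 17772, 6919, 17755 and 8043, with -1.35 ± 0.35 (adjusted p = 0.011).

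The AP-1 genes and Egr1 did not pass in the young sort with all libraries. Junb had 56985 and 56417 normalized reads in young macrophages, against 8314, 17149.8, 7458 and 96631 in young nonmacrophages, with 1.66 ± 0.73 (adjusted p = 0.1). Without replicate 14 this became 2.47 ± 0.31 (adjusted p = 9.8e-05), and Fos, Jund, Egr1, Klf2 and Dnajb1 were also called, so that 16 of the 29 were higher, against 9.46% of all genes, and 4 lower, against 18.3%. With replicate 14 as the only young nonmacrophage library, 5 were higher (Ier5, Btg2, Hsp90aa1, Hspa8 and Dnaja1), against 11.7%, and 9 were lower (Fosb, Junb, Jund, Klf4, Nr4a1, Nr4a2, Hspa1a, Hspa1b and Hspb1), against 23.3%. Counting by strand is not given in the sources used here, so reads of overlapping genes cannot be told apart, which concerns Junb with Prdx2, Dusp1 with Ergic1, Dnaja1 with Smu1, and Jund, Zfp36 and Hspa1a with predicted genes.

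Leaving out young macrophage replicate 9 left 9 genes higher, against 9.58% of all genes, and 3 lower, against 17.7%, with Ier2 (adjusted p = 0.051) and Klf4 no longer called. Leaving out replicate 15 left 7 higher, against 13.3%, and 6 lower, against 30.0%, with Ier2 (adjusted p = 0.072), Zfp36, Klf6, Myc and Hspb1 no longer called. The young sort calls also depended on the estimate of spread: fitted on the young groups alone, 1 of the 29 was higher (Ier5), against 2.07%, and 1 lower (Nr4a2), against 6.6%. With library quality weights 0 were higher, against 0.179%, and 1 lower (Hspa1b), against 2.94%. Quantile normalization moved the median of all genes to 0.08 and the calls over all genes to 2361 higher and 2797 lower, against 1693 and 4121 as deposited, with 6 of the 29 higher, against 12.8%, and 3 lower, against 15.2%. Neuron markers were higher in young macrophages in 9 of 12 genes and lower in 1, Schwann cell and glia markers were lower in 9 of 9, and their part was not tested.

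**Figure D4:**
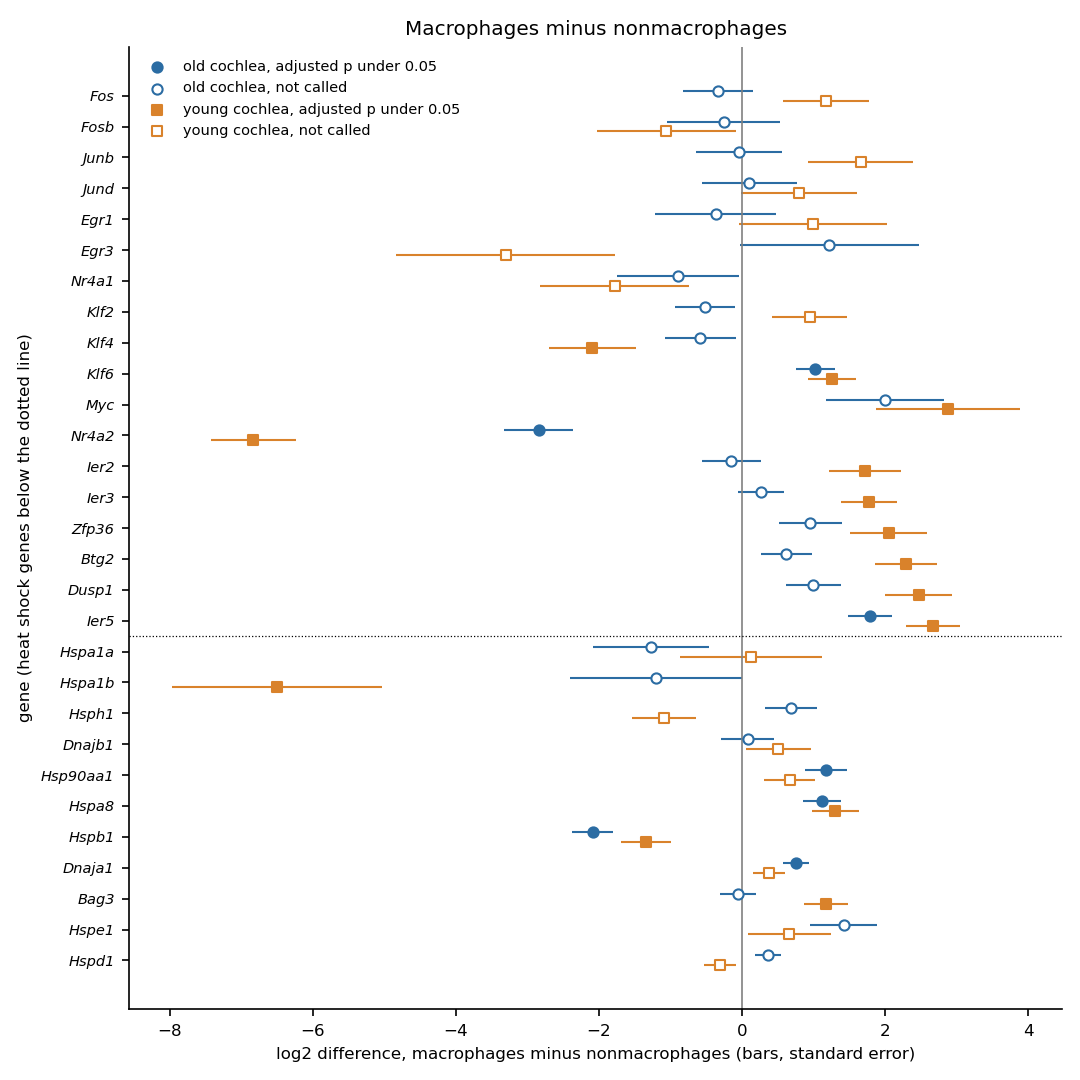
Log2 difference between macrophages and nonmacrophages (macrophages minus nonmacrophages, horizontal axis, bars ± standard error) for each of the 29 genes in the old cochlea (circles) and the young cochlea (squares), filled where the adjusted p was under 0.05. All 6 genes of the regulator group are filled for the young cochlea, at 1.72 to 2.67, where the call of Ier2 is not held by edgeR or DESeq2. Of these 6, only Ier5, at 1.79, is filled for the old cochlea, a contrast that the interaction test above did not call with all libraries.

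Sorted and unsorted young cells were set side by side to show levels with and without FACS, with 1 unsorted library and so no test. A gene was counted only if every sorted library was at least 2-fold from the unsorted one. Leaving out a sorted library can therefore only keep or raise a count. No gene of the 29 was higher in all 6 sorted young cochlea libraries, against 0.27% of genes, and 1, Hsph1, was lower in all 6, against 6.26%. Hsph1 had 395 and 1374 normalized reads in young macrophages and 832, 1893, 1879.6 and 2027 in young nonmacrophages, against 5878 in unsorted cells. Fos had 74099 and 207350 in young macrophages and 49171, 33990.4, 31259.8 and 170996 in young nonmacrophages, against 85606 in unsorted cells. The unsorted library thus lay inside the range of the sorted ones for Fos, and for Hsph1 at the top.

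Young macrophages were higher than unsorted cells in 4 genes (Ier3, Ier5, Btg2 and Dusp1), against 6.79% of genes, and lower in 7 (Fosb, Klf4, Nr4a1, Nr4a2, Hspa1a, Hspa1b and Hsph1), against 33.6%. Dusp1 had 78829.8 and 199665 normalized reads in young macrophages, against 29807 in unsorted cells. Nr4a1 had 176 and 2313, against 11779.7. Without replicate 9, 10 of the 29 were higher, against 14.8%. Higher were 2 of the 29 when scaled to a common total, against 4.32%, 2 with quantile normalization, against 20.6%, and 2 at a 3-fold limit, against 3.4%.

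Young nonmacrophages were higher than unsorted cells in 0 of the 29 genes, against 1.76% of genes, and lower in 1, Hsph1, against 10.9%. Without replicate 14, the other 3 libraries were all lower in 10 (Junb, Jund, Egr1, Nr4a1, Myc, Ier2, Hspa1a, Hspa1b, Hsph1 and Bag3), against 18.1%, and higher in 0, against 4.47%. Egr1 had 10076, 14874, 4692 and 162721 normalized reads in young nonmacrophages, against 87871 in unsorted cells, and Jund had 8842, 5708, 1811 and 42938, against 25715. Replicate 14 was above the unsorted library in both genes and the other 3 were below it. The macrophage markers were 31446 normalized reads in unsorted cells and neuron markers 260438, so the unsorted library also differs from both sorts in the cells it holds, and the part of this was not tested.

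**Figure D5:**
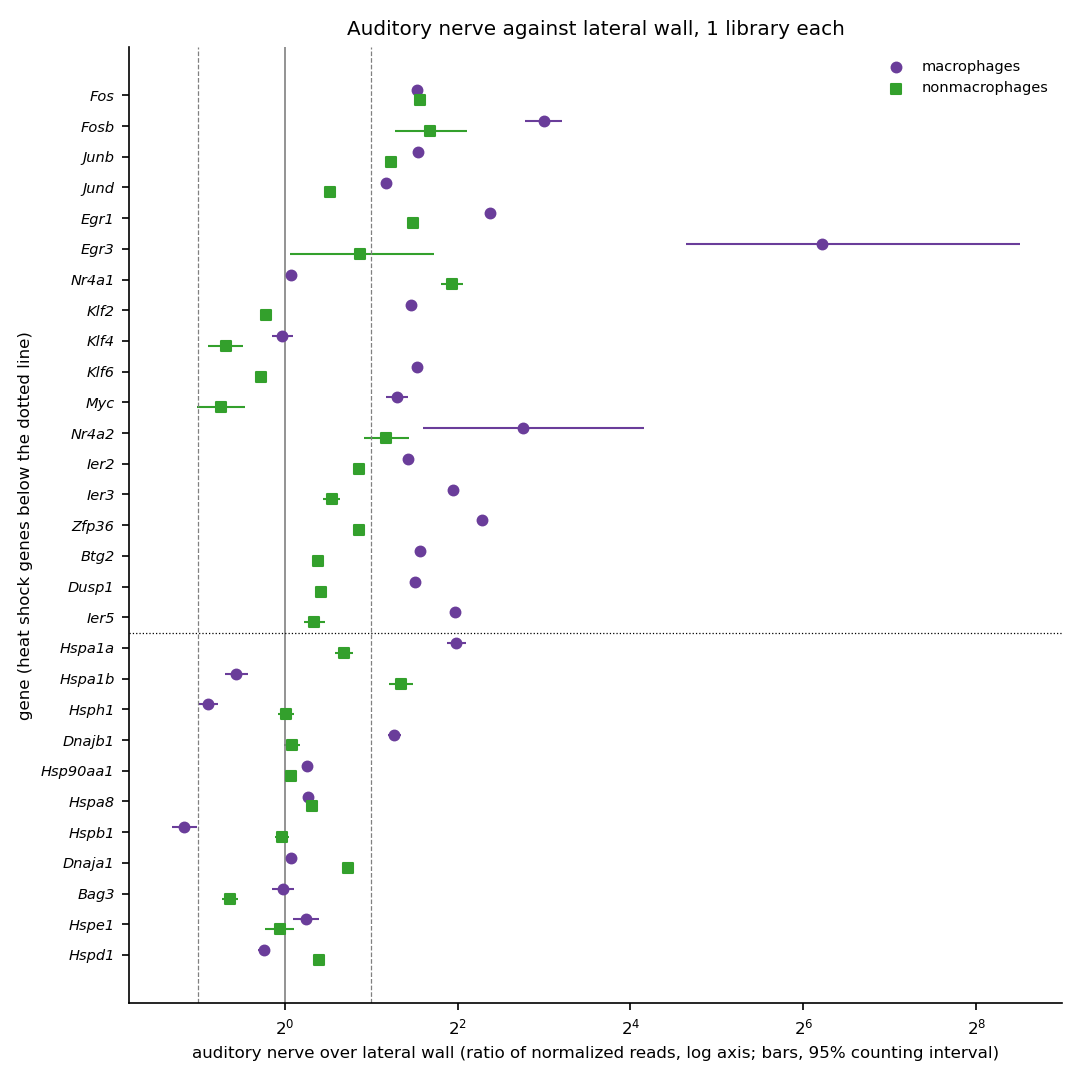
Ratio of auditory nerve to lateral wall (horizontal axis, log scale, bars 95% counting interval) for each of the 29 genes in macrophages (circles) and nonmacrophages (squares), from 1 library each, with dashed lines at 2-fold. In macrophages 18 of the 29 lie to the right of the upper dashed line and 1, Hspb1, to the left of the lower one.

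Auditory nerve macrophages stood above lateral wall macrophages in most immediate early genes, from 1 library each and so without a replicate check. At least 2-fold higher were 18 of the 29 genes, 16 of them immediate early, against 19.2% of all genes, and 1 was lower, Hspb1, against 16.8%. The median log2 difference of the 29 was 1.42, against 0.00 for all genes. Egr1 had 229149 normalized reads in nerve macrophages, against 44117 in lateral wall macrophages, a ratio of 5.19 (95% counting interval 5.13 to 5.26), where the interval covers counting error only. Zfp36 had 196766, against 40339, a ratio of 4.88 (95% counting interval 4.81 to 4.94). Egr3 had 340.3, against 4.59, where the lateral wall value is 3 reads, with a ratio of 74.1 (95% counting interval 25 to 362).

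Fos had 332005 normalized reads in nerve macrophages, against 115189 in lateral wall macrophages, a ratio of 2.88 (95% counting interval 2.86 to 2.91). Dusp1 had 235518, against 82555, and Hspa1a had 5115, against 1291. Only Klf4 and Nr4a1 among the 18 immediate early genes were within 2-fold. Hspb1 had 912, against 2040.1, so its ratio was 0.447 (95% counting interval 0.404 to 0.494). At a 3-fold limit 8 genes were higher, against 13.4%, and 0 lower, against 11.6%. Macrophage markers summed to 1289526 in nerve and 461834 in lateral wall macrophages, with 9 of 11 at least 2-fold higher, and neuron markers to 36889 and 244, with 4 of 12 at 0 in the lateral wall library. Their part in the difference was not tested.

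In nonmacrophages, 7 of the 29 were at least 2-fold higher in nerve than in lateral wall (Fos, Fosb, Junb, Egr1, Nr4a1, Nr4a2 and Hspa1b), against 18.7% of genes, and 0 were lower, against 15.4%. Fos had 63557 normalized reads in nerve nonmacrophages, against 21409.9 in lateral wall nonmacrophages, a ratio of 2.97 (95% counting interval 2.91 to 3.03), close to that in macrophages. Nr4a1 had 3551, against 927, a ratio of 3.83 (95% counting interval 3.51 to 4.19). The regulator group lay within 2-fold in nonmacrophages, with Dusp1 at 25715 in nerve and 19217 in lateral wall. A 3-fold limit left 2 genes higher, against 12.7%. Schwann cell and glia markers summed to 3231469 in nerve and 90296 in lateral wall nonmacrophages, and their part was not tested.

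Within each site, macrophages were also set against nonmacrophages, again from 1 library each. In the auditory nerve 17 of the 29 genes were at least 2-fold higher in macrophages than in nonmacrophages, against 19.9% of genes, and 2 were lower (Nr4a2 and Hspb1), against 32.0%. In the lateral wall 15 were higher, against 16.2%, and 2 were lower (Egr3 and Nr4a2), against 27.0%. Ier5 had 25516 normalized reads in nerve macrophages, against 1729 in nerve nonmacrophages, a ratio of 14.8 (95% counting interval 13.9 to 15.7), and 6517 in lateral wall macrophages, against 1361 in lateral wall nonmacrophages, a ratio of 4.79 (95% counting interval 4.45 to 5.15). Nr4a2 had 72.7, against 601, in nerve and 10.7, against 266, in lateral wall, where the macrophage value is 7 reads. Lower Nr4a2 in the macrophage sort was thus seen in 4 of 4 pairings of old cochlea, young cochlea, nerve and lateral wall. Scaled to a common total, 4 genes were lower in each site, against 35.1% of genes in nerve and 28.9% in lateral wall.

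Other genes of the same programmes were read from lists that were chosen with earlier results of these data known. Their counts stand against the shares of all genes called: 9.25% higher and 9.36% lower in the old sort, 9.18% and 22.3% in the young sort, 24.1% and 5.57% in macrophage age, and 1.64% and 0.0813% in nonmacrophage age. Of 37 other immediate early genes, 3 were higher and 2 lower in old macrophages than in old nonmacrophages, 5 higher and 10 lower in young macrophages than in young nonmacrophages, 11 higher and 0 lower in old than in young macrophages, and 0 in either direction in old than in young nonmacrophages. Plk3, a stress-induced polo-like kinase, was higher in macrophages in both ages, at 3.71 ± 0.58 (adjusted p = 0.00072) in old and 3.51 ± 0.71 (adjusted p = 0.0023) in young cochlea. Dusp4, a nuclear MAP kinase phosphatase, had 701, 326, 474 and 691 normalized reads in old macrophages and was at 0 in both young macrophage libraries (adjusted p = 7.9e-06). Arc, a synaptic immediate early gene, had 309.8, 452, 319.8 and 768 in old macrophages and was likewise at 0 in both young ones (adjusted p = 0.00053). The young macrophage libraries held reads for 11652 and 13532 genes, against 16750 to 17282 in old ones, and the part of this was not tested. Without young nonmacrophage replicate 14, 14 of the 37 were higher in old than in young nonmacrophages, against 12.3%, and 0 lower, against 7.11%.

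Of 28 other heat shock and cytosolic chaperone genes, 10 were higher and 1 lower in old macrophages than in old nonmacrophages, and 10 and 3 in the young cochlea. Cct8 and Cct5, subunits of the TRiC chaperonin that folds actin and tubulin, were higher in old macrophages at 1.12 ± 0.17 (adjusted p = 0.00062) and 0.80 ± 0.16 (adjusted p = 0.0032), and Tcp1 and Cct4 of the same complex in young macrophages at 0.95 ± 0.20 (adjusted p = 0.003) and 1.03 ± 0.26 (adjusted p = 0.0086). Serpinh1, the collagen chaperone Hsp47, was lower in macrophages at -1.89 ± 0.23 (adjusted p = 0.00013) in old and -1.67 ± 0.28 (adjusted p = 0.00061) in young cochlea. Old macrophages had 2 higher and 1 lower than young ones, and old nonmacrophages 0 and 0 against young ones.

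Of 16 endoplasmic reticulum stress genes, 3 were higher and 1 lower in old macrophages than in old nonmacrophages and 3 and 2 in the young cochlea, with Asns, asparagine synthetase, at 3.80 ± 0.39 (adjusted p = 3.3e-05) and 3.84 ± 0.47 (adjusted p = 4.6e-05). Of 19 rapid NF-kB response genes, 11 were higher and 0 lower in old macrophages than in old nonmacrophages, and 11 and 1 in the young cochlea. Il1a, the cytokine interleukin 1 alpha, was higher in old macrophages than in old nonmacrophages at 9.65 ± 0.50 (adjusted p = 2.5e-07) and was the 1 gene of the 19 called between old and young nonmacrophages (adjusted p = 0.011), at low levels of 10.5, 6.88, 10.0 and 10.4 normalized reads in old and 0, 0, 1.63 and 0.535 in young nonmacrophages. In old macrophages Il1a had 7393 to 8734 normalized reads. Between old and young nonmacrophages, 2 of 11 macrophage markers (Mrc1 and Cx3cr1) were also called higher in old cells, against 1.64% of all genes. The part of macrophages remaining in the nonmacrophage sort was not tested. Without replicate 14, 9 of the 19 were higher in old than in young nonmacrophages, against 12.3% of all genes, and 0 lower, against 7.11%.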

How the data were processed

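RNA from 19 libraries was prepared with the SMARTer Ultra and Nextera XT kits and sequenced on an Illumina HiSeq instrument, per the labels' protocols, which add that a subset was sequenced a second time (which libraries is not given in the sources used here). The submitters' processing notes name mm10, TopHat2, Partek and DESeq2. The deposited values are a signal in the authors' own scaling: read counts of each gene divided by a factor for each library. Whole reads were recovered from them within 0.1 read for 100.0% of values below 10000 reads and 99.89% of all values above 0. Because the main unit is scaled rather than raw, log2(value + 1) was tested with limma 3.58.1 in R 4.3.3 and Python 3.11.15 was used for the rest. The 14 sorted whole-cochlea libraries entered 1 fit of 4 groups, with genes at 1 or more in at least 2 libraries (18441 genes), Benjamini-Hochberg adjustment over all of them and a threshold of 0.05. Fold changes on this scale understate the change of low genes. edgeR 4.0.16 (quasi-likelihood) and DESeq2 1.42.0 were run on the recovered counts as alternatives. The 5 single libraries were compared by ratios, with a limit of 2-fold and 95% counting intervals that cover counting error only. Alternatives were the pseudocount, the filter, the scaling, library weights, the samples in the fit and leaving out each library.

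The members and gene lists were chosen with earlier results of these data known. All 29 members are named by role, with values in every library for those with the smallest adjusted p in a role and for uncalled ones of wide spread, and from other lists the genes with the smallest adjusted p in each direction are named. Each isolate came from 1 mouse, but macrophage and nonmacrophage isolates could share mice, and replicate numbers do not pair them.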

Additional observations from a re-analysis of the deposited data

Results flagged for a closer look

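In young nonmacrophages, 9 of the 29 genes had their highest value in replicate 14, with a gap to the next library that was large for a group of 4: Fos at 170996 normalized reads, Junb at 96631, Jund at 42938, Egr1 at 162721, Nr4a1 at 14302, Ier2 at 33229, Dusp1 at 52857, Hspa1a at 9702 and Dnajb1 at 8522. In the same group Hsph1 was set apart by its lowest value, 832 normalized reads in replicate 2. In old macrophages Nr4a1 was set apart by its highest value, 5898 normalized reads in replicate 17. In all, 11 of 87 groups of 4 libraries stood out in this way. The rule was Dixon's ratio, the gap to the next library divided by the range of the 4, at 0.829 or above. It was taken on normalized reads and not on the log2 scale of the other tests. Its limit holds for normally distributed values, which was not checked, so no rate by chance is given. Values of 1 library are also not independent of each other.

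The age difference of Nr4a2 was larger in macrophages than in nonmacrophages, by 3.99 on the log2 scale in an interaction test (limma, adjusted p = 0.0049), with the young macrophage libraries at 3 and 5 reads. Quantile normalization gave -0.44 (adjusted p = 0.81), library quality weights 3.79 (adjusted p = 0.71) and added nerve and lateral wall libraries 2.60 (adjusted p = 0.24), so that the call was lost under these 3 settings.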

How the results depend on the processing

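No paired analysis was possible because the replicate numbers of the labels are unique to each library. Counts are given as members higher, members lower and genes called. Old sort: library quality weights gave 14, 7 and 11167, and only the groups compared gave 12, 6 and 10654. Young sort: quantile normalization gave 6 higher, weights 0, 1 and 575, only the groups compared 1, 1 and 1426, adding nerve and lateral wall libraries 2 lower, and replicate 14 alone 5 and 9. Macrophage age: weights gave 1, 0 and 362, only the groups compared 2 lower, and adding nerve and lateral wall 2, 0 and 3421. Nonmacrophage age: genes called were 89 with quantile normalization, 190 with weights, 3 with edgeR, 1653 with DESeq2, 175 with only the groups compared and 8 with replicate 14 alone, and members were 1 lower with DESeq2 and 1 higher with nerve and lateral wall. Interaction: quantile normalization gave 0 higher and 638 genes (415 and 223 by direction, against 1288 and 176), weights 0 and 148, DESeq2 1 lower and 2973, nerve and lateral wall 0 and 358, and replicate 14 alone 2, 1 and 2902. Among genes called in the main fit or under the setting, sign turned with replicate 14 alone for Junb (-0.77), Jund (-1.64) and Hspa1a (-2.71) in the young sort and Jund (1.74) in the interaction. With quantile normalization it turned for Nr4a2 (-0.075 in macrophage age, -0.44 in the interaction). Genes called in neither fit, such as Fos and Egr1 in the young sort with replicate 14 alone, are not covered by this list.

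Leaving out 1 library gave, in the old sort, 4 to 5 higher, 2 to 2 lower and 2369 to 2656 genes, in the young sort 7 to 16, 3 to 6 and 5028 to 7984, in macrophage age 4 to 6, 1 to 1 and 4206 to 8490, in nonmacrophage age 0 to 16, 0 to 2 and 167 to 3562, and in the interaction 1 to 5, 0 to 8 and 1116 to 5369. The 16, 16, 2 and 8 came without young nonmacrophage replicate 14, as did 3562 genes, the 7 in the young sort, the 5, 8490 and 5369 without young macrophage replicate 15, and 167 without young nonmacrophage replicate 2, which also gave 3 higher in the interaction. Without old nonmacrophage replicates 10, 11 or 18 nonmacrophage age gave 169 genes each, and without young macrophage replicate 9 the interaction gave 1 lower and 2503 genes. Against unsorted cells, all sorted gave 0 to 0 higher and 1 to 4 lower, young macrophages 5 to 10 and 8 to 10 (4 and 7 with all libraries), and young nonmacrophages 0 to 1 and 1 to 10. As every library must pass, these counts can only stay or rise when a library is left out, so they do not measure stability. Likewise a 3-fold limit can only keep or lower a count. Lower against unsorted were 2 (all sorted) and 2 (nonmacrophages) with quantile normalization and 0 and 0 at 3-fold, and young macrophages were higher in 2 with a common total, quantile normalization or 3-fold. Nerve against lateral wall macrophages gave 8 higher and 0 lower at 3-fold and 2 lower with a common total, nonmacrophages 2 higher at 3-fold, and macrophages against nonmacrophages 4 lower with a common total in nerve and in lateral wall. The cause of the shifts that these rules do not set was not tested. Low genes such as Egr3 and Nr4a2 in macrophages rest on few reads.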
